A study of Homo sapiens with 6 samples.

Results

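Open chromatin far from protein-coding genes was described in hTERT-RPE1 (genotype WT), a human line derived from retinal pigment epithelium and made immortal by the catalytic subunit of telomerase. ATAC-seq, in which the transposase Tn5 places sequencing adapters in accessible DNA of isolated nuclei, was done in 6 libraries. Their titles name a set R1 and a set R2 of 3 libraries each, with the same genotype and no treatment named, and what distinguishes the sets is not stated. The authors deposited 1 peak list per set, merged over its libraries, so there is no spread between libraries, no test between groups can be made, and every value is that of a pooled list. Peaks of both lists that overlapped were joined into shared regions. A desert region is a shared region on chromosomes 1 to 22 that overlaps no protein-coding gene and lies more than 300 kb from the nearest end of one. This distance rule took 5695 of 119583 shared autosomal regions (4.76%), and the other 113888 are called the rest. Positions are on hg38. The choice used positions and no measured strength, so fold, width, pileup and sharing were free to differ.

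Gene deserts are long stretches of the genome without protein-coding genes. Some are conserved between vertebrates and hold enhancers, sequences that act on a promoter from a distance, often for developmental transcription factor genes at their edge, and others hold little known regulatory sequence and replicate late. Long noncoding RNA (lncRNA) genes are annotated in many of them. An open region there can be an enhancer, a binding site of the looping factor CTCF or the promoter of a noncoding RNA, and ATAC-seq alone does not tell these apart. hTERT-RPE1 is 1 cell line, and a desert region in it need not be open in pigment epithelium of the eye. Of 10 genes characteristic of pigment epithelium, 7 had a shared region within 1000 bp of a gene end and RPE65, TYR and LRAT had none, beside 2 of 5 photoreceptor genes and 3 of 5 blood cell genes. The background was 75.5% of all 18973 autosomal protein-coding genes, so these counts do not set the pigment epithelium genes apart.

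No genome sequence was used here, so the letters under most desert regions are not shown. Where a desert region overlapped the start of a lncRNA, the RefSeq promoter window (GRCh38.p14, 250 bases before to 50 after the start) gave the sequence. The 6 windows below belong to the starts whose regions ranked highest by fold, and they show how unlike one another these openings are in sequence. All of the window lay in the desert region for the first 5 genes, and part of it for FAM88E. Each is read 5′ to 3′ on the gene's strand, and capitals mark the matches described with the motif counts.
LOC105377188 (chr3:83953400-83953699, plus strand): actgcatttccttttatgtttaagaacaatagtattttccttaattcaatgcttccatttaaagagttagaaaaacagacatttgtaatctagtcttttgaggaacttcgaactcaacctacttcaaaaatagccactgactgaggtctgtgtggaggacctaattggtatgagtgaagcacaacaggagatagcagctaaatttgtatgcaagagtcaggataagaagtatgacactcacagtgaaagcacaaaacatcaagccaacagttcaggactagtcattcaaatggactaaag
LINC01701 (chr1:189775219-189775518, plus strand): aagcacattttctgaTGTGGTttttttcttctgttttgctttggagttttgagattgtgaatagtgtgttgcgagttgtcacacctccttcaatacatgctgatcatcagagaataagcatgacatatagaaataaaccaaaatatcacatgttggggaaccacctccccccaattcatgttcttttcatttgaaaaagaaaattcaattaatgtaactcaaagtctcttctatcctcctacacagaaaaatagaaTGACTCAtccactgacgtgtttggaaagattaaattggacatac
LOC124902439 (chr10:64041170-64041469, plus strand): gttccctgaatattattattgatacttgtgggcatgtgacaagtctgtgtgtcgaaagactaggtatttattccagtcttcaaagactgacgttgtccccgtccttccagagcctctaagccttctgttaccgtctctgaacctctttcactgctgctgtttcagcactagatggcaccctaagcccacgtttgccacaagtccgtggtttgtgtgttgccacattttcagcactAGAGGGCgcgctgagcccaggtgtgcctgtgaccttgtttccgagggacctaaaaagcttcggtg
LOC101927293 (chr6:57961298-57961597, plus strand): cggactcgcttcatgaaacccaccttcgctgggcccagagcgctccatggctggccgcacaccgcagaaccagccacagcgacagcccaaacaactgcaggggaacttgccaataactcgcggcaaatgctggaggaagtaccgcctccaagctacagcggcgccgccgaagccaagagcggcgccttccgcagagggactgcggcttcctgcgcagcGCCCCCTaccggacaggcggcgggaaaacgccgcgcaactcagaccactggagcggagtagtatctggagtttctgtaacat
LOC124900845 (chr4:32140729-32141028, minus strand): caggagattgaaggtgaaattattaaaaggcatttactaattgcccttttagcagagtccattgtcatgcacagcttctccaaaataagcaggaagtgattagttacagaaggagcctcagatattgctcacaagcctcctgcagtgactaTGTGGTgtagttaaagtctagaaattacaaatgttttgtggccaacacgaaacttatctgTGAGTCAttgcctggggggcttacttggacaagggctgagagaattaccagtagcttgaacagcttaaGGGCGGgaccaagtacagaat
FAM88E (chr9:42569300-42569599, minus strand): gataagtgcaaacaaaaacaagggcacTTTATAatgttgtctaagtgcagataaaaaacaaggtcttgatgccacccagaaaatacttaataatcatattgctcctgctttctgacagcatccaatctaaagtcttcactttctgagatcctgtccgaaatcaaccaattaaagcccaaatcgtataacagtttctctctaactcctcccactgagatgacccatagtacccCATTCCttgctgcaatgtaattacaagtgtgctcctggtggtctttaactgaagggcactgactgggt
LOC105377188 held none of the motifs searched in this window, and its second start, in the same desert region, held an AP-1 and a TATA motif. LINC01701 and LOC124900845 each held an AP-1 and a RUNX motif, and LOC124900845 a GC box as well. LOC124902439 and LOC101927293 each held the CTCF core, and FAM88E a TATA and a TEAD motif. Only 104 bases of the FAM88E window lay in its desert region, and the TATA motif, 223 bases before the start, lay outside that region.

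Open regions thinned out with distance from genes and did not end. Desert sequence made up 17.2% of the autosomes between the outermost peaks (479 Mb) and held 11.9 shared regions per Mb, against 49.4 per Mb in the rest of the sequence, a ratio of 0.241. By distance, the density was 57.9 per Mb in sequence overlapping a gene, 59.3 at 1 bp to 1 kb, 53.0 at 1 to 20 kb, 40.7 at 20 to 100 kb, 25.8 at 100 to 300 kb, 17.8 at 300 to 500 kb, 12.1 at 500 kb to 1 Mb and 5.10 beyond 1 Mb. Each step outward from 1 kb was a step down, in deserts as outside them. The density was lower in deserts than in the rest on all 22 autosomes, between 1.44 per Mb on chromosome 19, which had 7 desert regions, and 18.4 per Mb on chromosome 8. All 7 lay between ZNF254 and UQCRFS1, where stretches of over 1 Mb without a peak took up 4.23 of 4.48 Mb of desert. Chromosome 4 had the most, 728.

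**Figure D1:**
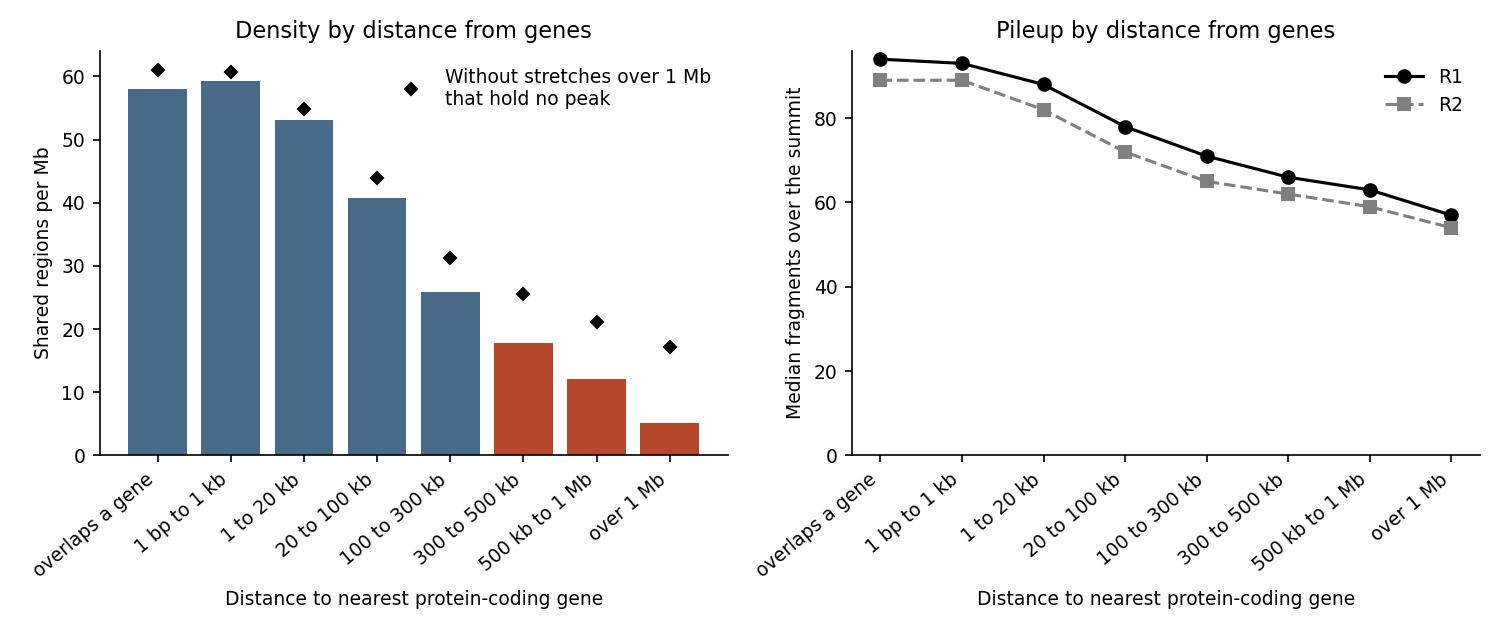
Shared regions per Mb (left) and the median number of fragments over the summit in R1 and R2 (right) by distance to the nearest protein-coding gene. Bars in red are desert distances, bars in blue the rest, and diamonds leave out stretches of over 1 Mb without a peak. Both measures were lowest beyond 1 Mb, at 5.10 regions per Mb and 57 and 54 fragments.

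Part of this decline was empty sequence. The autosomes held 175 stretches of over 1 Mb without a peak in either list, 388 Mb in all, and 224 Mb of that was desert. With those left out, a choice made after the values were seen that raises densities by its construction, deserts held 22.4 regions per Mb, against 53.1 in the rest, a ratio of 0.421. The order by distance remained, with 25.5 per Mb at 300 to 500 kb, 21.0 at 500 kb to 1 Mb and 17.2 beyond 1 Mb. What lies in the empty stretches (closed chromatin, unassembled sequence such as centromeres, or sequence where reads cannot be placed) cannot be told apart from these lists.

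Deserts differed widely in how many open regions they held. The desert sequence falls into 541 stretches between neighbouring protein-coding genes, of which 358 held at least 1 desert region and 183 none, with a median core of 0.619 Mb for those with a region and 0.279 Mb for those without. The core is the part more than 300 kb from both genes. Among the 149 cores of at least 1 Mb the density ranged from 0 to 54.4 per Mb, with a median of 6.99 and quartiles of 0.218 and 17.6. Of these, 33 held no region, 30 up to 5 per Mb, 22 over 5 to 10, 35 over 10 to 20, 23 over 20 to 40 and 6 over 40. Empty stretches took up 59.5 of 60.8 Mb in the cores without a region and 106 of 116 Mb in those with up to 5 per Mb. None of the cores with over 20 per Mb contained one. An empty stretch is defined by having no peak, so this pattern follows largely from the definition and is no separate finding. The 69 large cores without an empty stretch had a median of 18.2 per Mb, which their choice raises by construction, and 1 of them held no region. LRRC4C to API5, CHORDC1 to FAT3 and OR4C12 to OR4C46, all on chromosome 11, were among the cores with 0 regions and were empty over their whole length of 1.25, 1.40 and 4.02 Mb. The core at the lower quartile, on chromosome 22 up to OR11H1, was empty over 4.54 of its 4.58 Mb. Whether peaks could have been called in such cores was not tested. The range, median and quartiles may therefore mix sequence where reads cannot be placed with other deserts. A density per Mb in these windows has a counting error that grows as the core shortens.

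Counted by stretch, desert regions were concentrated in a minority of them. The 62 stretches with the most together held 50% of the regions, and the 10 with the most held 689 (12.1%). These counts were not set against length. The 10 had cores of 0.906 to 4.26 Mb, against a median of 0.619 Mb for all stretches with a region. First came ZEB2 to ACVR2A on chromosome 2, with 87 regions in a core of 2.72 Mb, between a zinc finger repressor of neural crest and mesenchymal programmes and an activin receptor. CITED2 to LOC124901415 on chromosome 6 held 83 in 1.71 Mb; CITED2 is a co-regulator that binds CBP and p300. PCDH7, a protocadherin, to ARAP2 on chromosome 4 held 75 in a far longer core of 4.26 Mb. The MYC to GSDMC stretch on chromosome 8, beside the growth regulator MYC, held 71 in 1.36 Mb. AGA, a lysosomal enzyme gene, to TENM3, a teneurin adhesion gene, held 66 in 3.41 Mb. SLC4A3, an anion exchanger, to EPHA4, an ephrin receptor, held 64 in 1.18 Mb and was the densest large core at 54.4 per Mb. ARRDC3, an arrestin family gene, to NR2F1, an orphan nuclear receptor, also held 64, in 1.60 Mb.
RFPL4B to MARCKS, the gene of an actin-binding substrate of protein kinase C, held 63 in only 0.906 Mb, or 69.5 per Mb, with a median spacing of 7.52 kb. ZPLD1 to ALCAM, a cell adhesion gene, and SLITRK5 to GPC5, genes of a synaptic adhesion protein and a glypican, held 58 each. None of the 10 contained an empty stretch, and their median percentiles of fold ranged between 53.7 and 69.0 in R1, around the 60.9 of all desert regions. The genes at the edge give positions only, and which gene, if any, a desert region acts on was not measured.

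**Figure D2:**
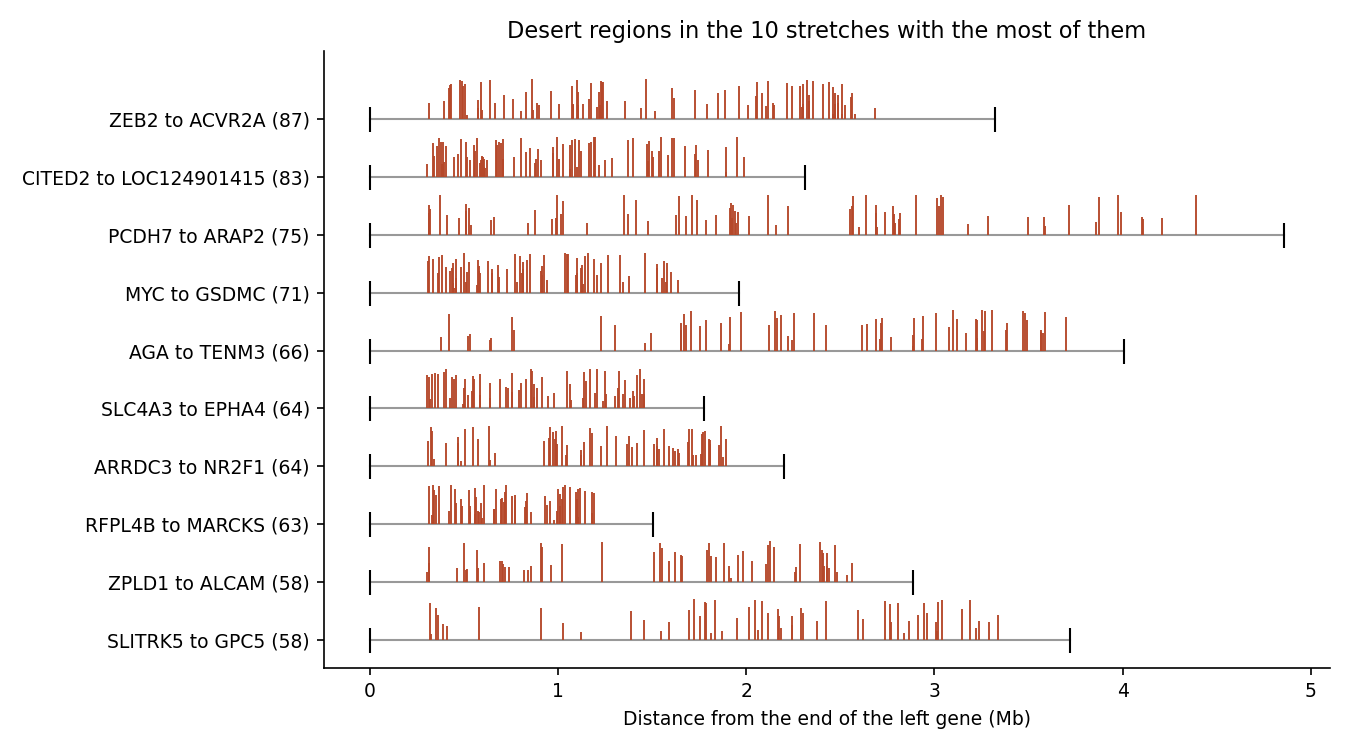
Position of every desert region in the 10 stretches with the most of them, as the distance in Mb from the end of the left gene. Ticks across the line are the 2 flanking genes, the height of each red line is the mean percentile of fold, and numbers in brackets count the regions. ZEB2 to ACVR2A held 87 regions and SLITRK5 to GPC5 58, and regions stood both alone and in tight groups. Gaps stood for example in AGA to TENM3, PCDH7 to ARAP2, SLITRK5 to GPC5 and ZPLD1 to ALCAM.

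Desert regions were spaced more widely than other regions but often came in groups. Another desert region lay within 10 kb of 3339 of them (58.6%, 95% Wilson interval 57.3 to 59.9) and within 50 kb of 91.2%. With any shared region counted as the neighbour, the shares within 10 kb were 59.0% of desert regions and 77.8% of the rest. Within 50 kb they were 91.8% of desert regions and 98.5% of the rest. Joined at gaps of up to 10 kb, the desert regions made 3589 groups, of which 2356 were single, 757 were pairs and 476 had 3 or more, 96 of them at least 5. The largest group, of 16 regions over 70.7 kb on chromosome 22 (27100359 to 27171083), lay between CRYBA4, a lens crystallin gene, and MN1, a transcriptional co-activator gene. Its R1 folds lay between 1.95 and 11.8 and its R2 folds between 1.92 and 12.5, so strong and weak regions stood side by side. The second, of 11 regions over 50.6 kb on chromosome 11, lay closest to the potassium channel gene KCNA4.

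By fold, desert regions ranked somewhat above the rest, and they were more frequent at the top. Fold is the authors' enrichment of the peak over its local background, and a percentile is its rank among the autosomal peaks of the same list. The median fold was 6.16 in deserts and 5.71 in the rest in R1, and in R2 it was 5.80 in deserts and 5.50 in the rest. The median percentile was 60.9 in deserts and 56.9 in the rest in R1, and in R2 it was 57.2 in deserts and 54.3 in the rest. At or above the median fold of both lists were 3211 desert regions (56.4%), against 52.4% of the rest and a background of 52.6% of all shared regions. In the strongest decile of both lists were 799 (14.03%), against 8.83% of the rest and a background of 9.08%. In the weakest decile of both lists were 40 (0.702%), against 3.50% of the rest. Regions at 100 to 300 kb stood between, with 11.8% in the strongest decile of both lists. Desert regions were thus fewer at the bottom and more frequent at the top, with little difference in the middle.

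**Figure D3:**
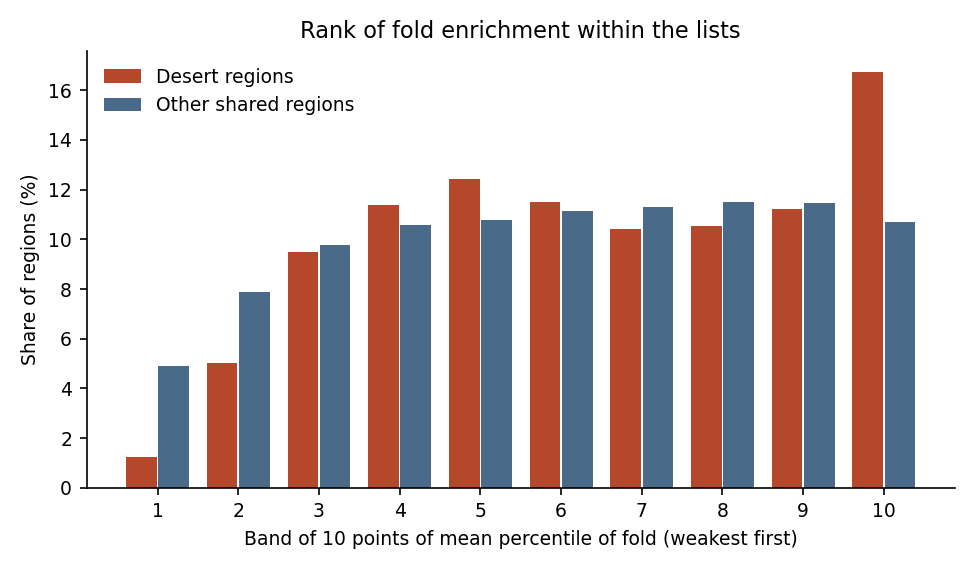
Share of desert regions (red) and of the rest (blue), in percent of each set, in bands of 10 points of the mean percentile of fold over R1 and R2, weakest first. The top band held 16.8% of desert regions and 10.7% of the rest, and the bottom band 1.23% of desert regions and 4.88% of the rest.

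The higher folds did not come with more fragments. The pileup, the number of fragments over the summit recovered from the deposited fold and p-value, had a median of 64 in deserts and 88 in the rest in R1, and in R2 it was 60 in deserts and 82 in the rest. The local background recovered in the same way had a median of 7.93 in deserts and 13.0 in the rest in R1, and in R2 it was 7.79 in deserts and 12.6 in the rest. It stood at the lowest value of the list for 56.3% of desert regions and 25.9% of the rest in R1, and in R2 for 56.7% of desert regions and 26.6% of the rest. In the top band of the mean percentile, desert regions had a median of 141 fragments in R2, against 171 in the rest, and a background of 10.9, against 13.9. Fold thus ranks desert regions higher than pileup does, and how far the lower background in deserts accounts for their rank was not tested. Ranked by −log10 p-value instead, 5.21% of desert peaks of R1 fell in the strongest decile, against 10.2% of the rest, and by fold 15.7%, against 9.72%.

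Desert regions were also narrower. Their median width was 705 bp (quartiles 505 and 970), against 840 bp (588 and 1155) in the rest, and regions at 100 to 300 kb had 765 bp. Together they covered 4.38 Mb. Regions of at least 2000 bp numbered 34 (0.597%), against 3.67% of the rest. The median was lower in deserts in all 10 bands of the mean percentile. It was 571 bp in deserts and 725 bp in the rest in the fifth band, and 1007 bp in deserts and 1050 bp in the rest in the top band. The R1 and R2 summits of a desert region lay a median of 31 bp apart, against 38 bp in the rest.
The widest desert region spanned 3156 bp on chromosome 4 (180057465 to 180060620), 1387 kb from TENM3, and its fold was 6.66 in R1 and 6.07 in R2. The next 4 in width were 2704 bp in CD83 to JARID2, 2608 bp in ARRDC3 to NR2F1, 2582 bp in LINC00702 between KLF6 and AKR1E2, and 2520 bp in USP24 to PLPP3. Their folds lay between 3.75 and 6.84, at percentiles of 34.0 to 66.9. The 5 widest were thus not among the strongest, although the median width was highest in the top band.

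Named here are the 10 desert regions with the best mean percentile of fold over both lists. That choice puts them near the top of both lists by construction. The best mean percentile belonged to a region of 668 bp on chromosome 2 (193824111 to 193824778), 1629 kb from TMEFF2, a transmembrane protein gene, and outside any lncRNA of the table. Its folds were 18.1 in R1 and 17.7 in R2, with 166 and 155 fragments, and its summits lay 3 bp apart. A region of 789 bp on chromosome 12 (60266138 to 60266926), 454 kb from LOC100996696, had folds of 17.3 and 17.9 and 243 and 263 fragments. A region 762 kb from ALCAM had folds of 17.3 and 17.3 with its summits at the same base. These values placed each above the 99.9th percentile of both lists.
The desert between LOC647264 and PCDH9, a protocadherin gene, had 2 of the 10, with folds of 18.1 and 16.4 at 64723457 on chromosome 13 and of 16.2 and 17.3 at 64675270. Regions inside lncRNA genes made up 3 of the 10. They lay in LOC102724465, 381 kb from the neurotrophin receptor gene NTRK3 (folds 17.2 and 16.1), in LOC102724355 on chromosome 21 (16.6 and 15.9), and in LINC02725, 300.6 kb from ETS1, the gene of an ETS transcription factor (16.3 and 15.6). The last 2 lay 772 kb from CDH18, a cadherin gene (15.6 and 16.3), and 651 kb from NECTIN3, a cell adhesion gene (15.4 and 16.2). The order within the 10 differed between the lists, and each list has 1 value per region with no error.

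Desert peaks were found in the other list about as often as other peaks. Of 6445 desert peaks in R1, 5718 (88.7%, 95% Wilson interval 87.9 to 89.5) overlapped an R2 peak by at least 1 bp, against 87.2% of the rest and a background of 87.3%. Of 6165 desert peaks in R2, 5727 (92.9%, interval 92.2 to 93.5) overlapped an R1 peak, against 91.7% of the rest and a background of 91.8%. These intervals cover counting error only, and neighbouring peaks are not independent. The peaks not found were weak, with median folds of 2.80 (R1) and 2.81 (R2) and median widths of 279 and 284 bp.
At like fold the order turned round, most of all among weak peaks. In the first decile of R1 by fold, 40.1% of desert peaks (33.9 to 46.7) were found in R2, against 47.9% of the rest, and in the third, 68.9% against 78.5%. In the fourth the shares were 85.3% of desert peaks (82.4 to 87.7) and 92.1% of the rest, and in the sixth 97.5% (96.0 to 98.4) and 99.4%. In R2 the third held 81.3% of desert peaks (78.1 to 84.1) found in R1, against 88.7% of the rest, and from the seventh on every desert peak was found. At like −log10 p-value the shares lay nearer and in both orders, with 39.5% of desert peaks against 34.7% in the first decile of R1, 58.0% against 60.9% in the second, 79.8% against 83.5% in the third and 94.2% against 95.1% in the fourth. Desert peaks lay less often in the weakest decile of fold, where 3.44% of those in R1 fell, against 10.3% of the rest.

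**Figure D4:**
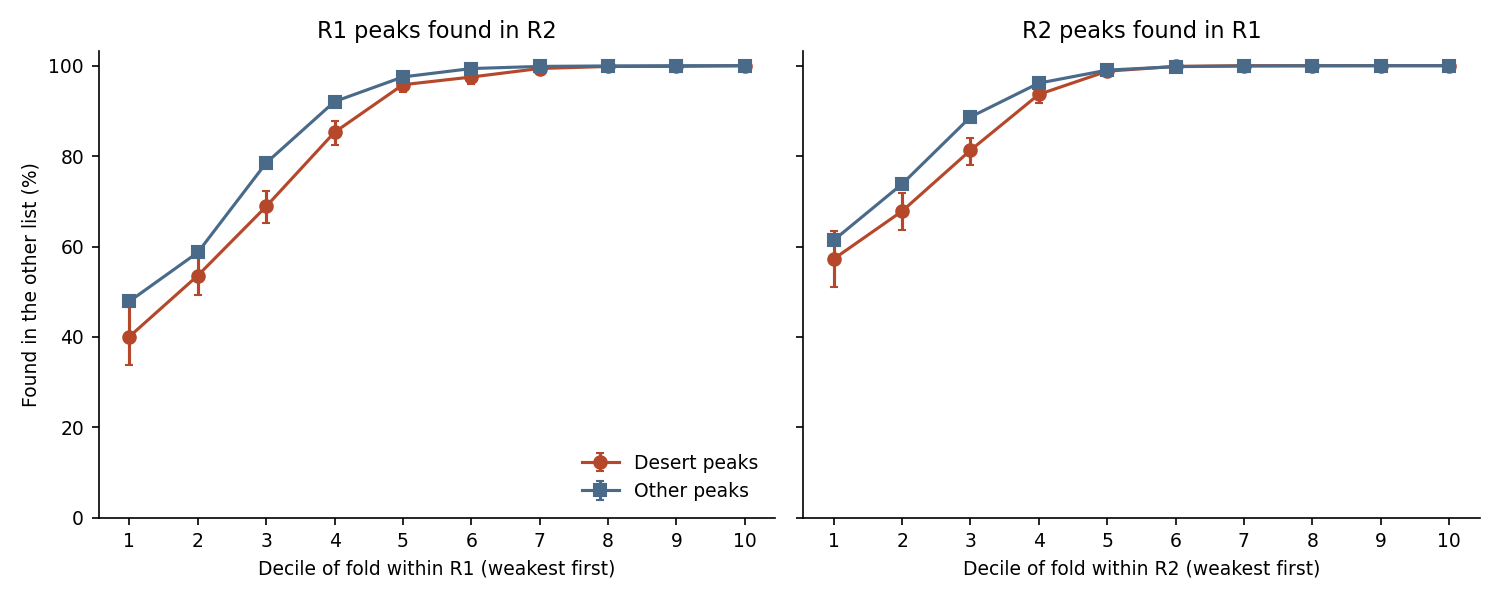
Share of peaks found in the other list, in percent, by decile of fold within the list, for R1 peaks (left) and R2 peaks (right). Red circles are desert peaks and blue squares the rest, with 95% Wilson intervals for counting error. Desert shares lay lower from the first to the fifth decile of both lists, for example 68.9% against 78.5% in the third of R1. In the sixth of R1 they were still lower, at 97.5% against 99.4%, and both sets reached about 100% in the upper deciles.

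Most desert regions lay in no annotated gene, and lncRNA genes held most of the others. A noncoding gene of the table overlapped 1966 (34.5%), against 19.0% of the rest and a background of 19.7%, and 3729 (65.5%) overlapped no gene of any kind, against 26.9% of the rest. A region of the rest may also overlap a protein-coding gene, which the rule bars for desert regions, so these shares are not alike in their chance of being met. LncRNA genes overlapped 1895 (33.3%), pseudogenes 33, transcribed pseudogenes 23, miRNA genes 3 and a snoRNA gene 1. LncRNA genes covered 19.8% of desert sequence and held 19.95 regions per Mb inside, against 9.90 per Mb outside. Without the empty stretches, of which they covered 11.4%, the densities were 27.3 inside and 20.5 outside. If lncRNA genes had counted as genes in the distance rule, 278 desert regions would have been left.
In all, 568 lncRNA genes held at least 1 desert region and 128 held 5 or more. LOC105370777 on chromosome 15, 556 kb long, held 44, with folds of 2.14 to 12.5 in R1. LOC124901056 on chromosome 5, 891 kb long, held 28, and LOC105373893 in the SLC4A3 to EPHA4 stretch held 22. LINC02267 and LOC105377979 held 21 each. DIRC3 held 20, CFAP418-AS1 19 and LOC101927421 19. Whether these genes are transcribed in these cells was not measured.

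Most lncRNA starts in deserts had no open region. A shared region overlapped 67.2% of 21156 protein-coding starts and 46.5% of 5008 lncRNA starts that overlap a protein-coding gene. It overlapped 30.3% of 4708 lncRNA starts at 1 bp to 100 kb from one, 12.1% of 1650 at 100 to 300 kb, and 67 of 1203 (5.57%, 95% Wilson interval 4.41 to 7.01) in deserts. The background over all starts was 54.1%, and over lncRNA starts 32%. The fall with distance ran alongside base composition, since the median GC share of the windows was 62.7%, 56.7%, 50.3%, 44.7% and 40.3% in the same order. The part of GC content in the fall was not tested. The 67 starts belonged to 63 genes and 64 desert regions, which was 1.12% of all desert regions. The median width of those 64 was 999.5 bp, and their median percentile of fold was 78.9 in R1 and 76.3 in R2. A wide region overlaps a window more often than a narrow one, so the choice by overlap itself favours width. Their summits lay a median of 128.5 bp (R1) and 121 bp (R2) from the start.

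**Figure D5:**
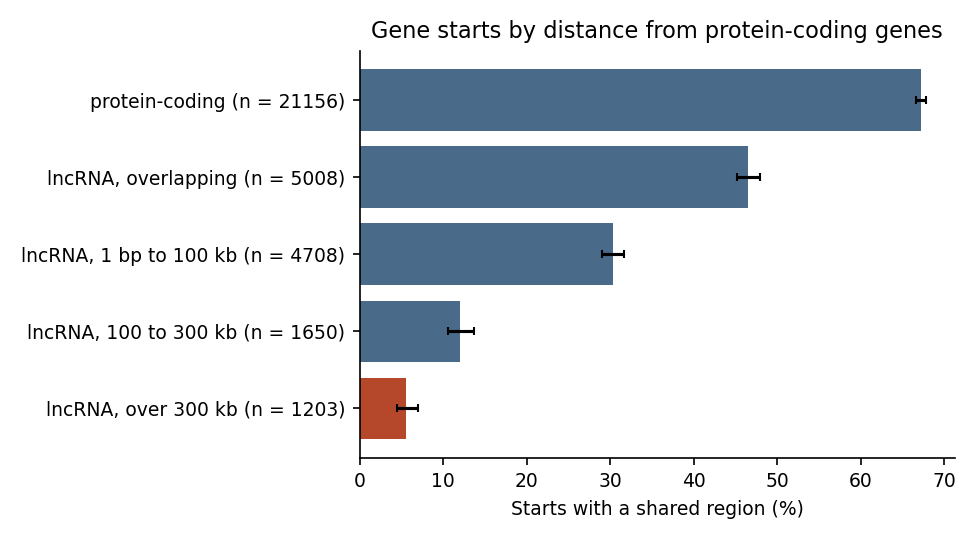
Share of RefSeq gene starts overlapped by a shared region, in percent, for protein-coding genes and for lncRNA genes by distance from protein-coding genes. Bars give the share and lines the 95% Wilson interval for counting error. Desert lncRNA starts (red) had a share of 5.57%, the lowest of the 5 classes.

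The open desert starts differed from most promoters in their letters. Each motif was searched on both strands of the 300 base windows, where N is any base. AP-1 (TGANTCA), the site of FOS and JUN dimers, stood in 18 of the 67 open starts (26.9%, interval 17.7 to 38.5), in 12.9% of the 1136 other desert starts and in 7.67% of all 33725 starts. RUNX (TGTGGT) stood in 28.4% of the open ones, 18.3% of the others and 13.1% of all, and TEAD (GGAATG) in 20.9%, 16.0% and 14.04%. The promoter motifs went the other way against all starts. The GC box (GGGCGG) stood in 14.9% of the open desert starts, 8.10% of the others and 45.0% of all, and ETS (CCGGAA) in 2.99%, 3.26% and 17.3%. The letters TATAAA of the TATA box stood in 25.4% of the open ones, 30.6% of the others and 11.6% of all, and the CTCF core (AGNGGGC) in 17.9%, 12.2% and 30.3%. E-box (CACGTG) and OTX (TAATCC) motifs stood in 3 open starts each (4.48%), against 1.94% of the others and 7.18% of all for the E-box and 10.5% and 6.37% for OTX. The open desert windows had a median GC share of 42.7%, with a range of 28.7% to 75.7%, so motifs of different base composition differ in how often they arise, and a match is not a bound site. The intervals for AP-1 and for RUNX (19.0 to 40.1%) lay above the shares in the other desert starts and in all starts, for RUNX only just. That for TEAD (12.9 to 32.1%) did not. The interval for the GC box (8.31 to 25.3%) lay just above the other desert starts and below all starts. These intervals rest on 67 windows, some of which overlap one another in the same desert region and so are not independent. No test was made.

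Within 1000 bp of a noncoding gene's end lay 318 desert regions (5.58%), against 9.90% of the rest and a background of 9.7%. Among the 294 genes with such a desert region, the best ranked was LOC124903071 on chromosome 12, whose end lay beside the region that ranked second among all desert regions. LOC107984621 on chromosome 13, 1721 kb from SLITRK5, had folds of 16.0 in R1 and 14.5 in R2. LOC124903242, 1221 kb from SLITRK1, a synaptic adhesion gene, had 14.5 and 15.2. LOC105377188, 1005 kb from the adhesion gene CADM2, had 14.4 and 14.7, and LINC01701, 322 kb from BRINP3, had 14.6 and 14.1. The windows of these last 2 are printed first among the sequences. MIR3660, RPS18P10, LINC00680, LINC00680-GUSBP4 and LOC101927293 completed the 10, the last 3 sharing a single region of 1130 bp with folds of 13.3 and 13.0.

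Most miRNA genes in deserts had no open region near. Of 73 in deserts, a desert region overlapped 3, lay within 1 kb of 9 (12.3%, 95% Wilson interval 6.62 to 21.8) and within 5 kb of 17 (23.3%, 15.1 to 34.2). Elsewhere a shared region overlapped 14.1% of 1720 miRNA genes and lay within 5 kb of 61.3%. The 3 overlapped were MIR1207, 305 kb from MYC (folds 7.82 and 8.82), MIR663A on chromosome 20, 511 kb from ZNF337 (7.05 and 7.16), and MIR3648-2 on the short arm of chromosome 21 (3.09 and 4.68). MIR663A lay in the core of ZNF337 to LOC124904970, of which empty stretches took up 3.02 of 4.52 Mb. MIR99A and MIRLET7C, neighbours on chromosome 21 whose products belong to the miR-99 family and to the growth-restraining let-7 family, lay 1396 and 2135 bp from the same region, with folds of 5.64 and 6.15. MIR3660 lay 393 bp from a region with folds of 13.99 and 14.23. Mature sequences from RefSeq (GRCh38.p14), only the 5p arm for miR-99a and let-7c, are shown with the seed, bases 2 to 8, in capitals. No pair of these 5 shared a seed.
hsa-miR-663a: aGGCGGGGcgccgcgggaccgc
hsa-miR-3648: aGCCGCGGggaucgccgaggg
hsa-miR-99a-5p: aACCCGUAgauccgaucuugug
hsa-let-7c-5p: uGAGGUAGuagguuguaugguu
hsa-miR-3660: aCUGACAGgagagcauuuuga

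Many genes of developmental regulation and of neural adhesion bordered deserts. The number of open regions per Mb beside them differed between the lists, and so did the amount of desert. Each desert core was cut at its midpoint and each side assigned to its nearer gene. Of 112 developmental transcription factor genes, 63 (56.2%) flanked a desert, as did 91 of 124 genes of neural adhesion and synapse (73.4%), 27 of 93 of secreted signals and receptors (29.0%) and 10 of 50 of extracellular matrix and mesenchymal cells, against 962 of 18973 protein-coding genes (5.07%). The lists were chosen as kinds of genes known to border deserts, so these counts are a description. Neural adhesion genes were nearest to 885 desert regions (15.5%), at 11.4 per Mb of their desert, and 19.1 without empty stretches, against 11.9 and 22.3 for all flanking genes. Transcription factor genes were nearest to 331, at 17.0 per Mb and 24.5 without empty stretches. The list of secreted signals and receptors had 155 at 23.1 and 28.9 per Mb, and matrix genes 80 at 38.3 and 45.2 per Mb. The desert assigned to the flanking genes was 77.5 Mb for the 91 neural adhesion genes and 19.5 Mb for the 63 transcription factor genes. It was 6.72 Mb for the 27 genes of secreted signals and only 2.09 Mb for the 10 matrix genes. Density falls with distance from genes, and the part of desert length in the order of the lists was not tested.
Among the transcription factors, ZEB2 was nearest to 49 desert regions, up to 1615 kb away, with folds of 2.35 to 15.7 in R1. NR2F1 was nearest to 39, SOX9, which acts in cartilage and testis development, to 30, TFAP2A, a neural crest factor, to 23 and ETS1 to 20. Of the 63 that flank a desert, 32 (50.8%) were nearest to a region, against 571 of all 962 flanking genes (59.4%). In the list of neural adhesion and synapse, those with the most were PCDH9 and SLITRK1 with 48 each, TENM3 with 43, PCDH7 with 42 and GPC5 with 37. For IGFBP3, a carrier of insulin-like growth factors, 26 regions reached 670 kb, with median folds of 6.72 in R1 and 6.76 in R2. SPRY2 and SPRY1, feedback inhibitors of growth factor signalling, had 21 and 13. They were placed in the list of secreted signals and receptors but are neither. FSTL5, a follistatin-like gene, had 13 and GDF6, a bone morphogenetic protein family ligand, 11. HAS2, a hyaluronan synthase, had 28 within 554 kb, and COL12A1, a fibril-associated collagen, 15. TNC, tenascin C, had 14, MMP16, a membrane-bound metalloprotease, 11, and SPOCK3, a matrix proteoglycan, 5.

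The regions farthest from any protein-coding gene lay on chromosome 22 (10683033 to 10684016, 4844 kb from OR11H1, folds 9.74 and 8.19) and on chromosome 1 (125117736 to 125118645, 3655 kb from LINC02798, which the table calls protein-coding, folds 6.83 and 7.85). The next 3 lay together on chromosome 4 between PCDH7 and ARAP2, 2308, 2296 and 2289 kb from ARAP2. The last of these had folds of 11.9 and 11.2 and 185 and 162 fragments, and the others had 6.83 and 6.14, and 7.39 and 7.28. At the limit itself, the 3 regions just inside lay 300.011, 300.012 and 300.037 kb from ZPLD1, SLC7A11 and TRAM1L1, with folds in R1 of 3.02, 3.81 and 6.61. The 3 just outside lay 299.826, 299.888 and 299.905 kb from RUNX1, RASGRP1 and PRKD1, with folds in R1 of 3.92, 2.92 and 4.70.

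The highest pileup of all shared autosomal regions was in a desert, a fact found after the values were seen. This region of 673 bp on the short arm of chromosome 21 (8988057 to 8988729), 371 kb from LOC101927345, had 1568 fragments in R1 and 1486 in R2, with a background of 119 and 136 and folds of 13.1 and 10.9. Its neighbours in the table are the miRNA genes MIR3648-2 and MIR10396A, which belong to families in the ribosomal RNA repeats. The desert region with the next highest pileup had 648 and 645 fragments and lay in the lncRNA GLIDR near the centromere of chromosome 9, and 4 desert regions in all had at least 500 in R1. Sequence on the short arms and near the centromeres occurs in many copies. How the authors placed reads from such copies is not given in the sources used here. These pileups, the positions of the 2 farthest regions and the overlap of MIR3648-2 are therefore uncertain.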

How the data were processed

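ATAC-seq was measured in 6 libraries of wild-type hTERT-RPE1 cells. The authors deposited 1 merged narrowPeak list per set, of 143492 (R1) and 134940 (R2) peaks, of which 139657 and 131287 lay on autosomes. Per the submitters' processing notes, positions are on hg38. Not given in the sources used here are the aligner, the caller of the peaks, its settings and any Tn5 shift. Each deposited peak carries an integer score, a fold enrichment (a ratio), a −log10 p-value, a −log10 q-value and a summit offset, all the authors' values. They describe, rank or filter peaks within a list only.

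Peaks overlapping by at least 1 bp were joined (numpy 2.4.6, pandas 2.3.3, Python 3.11.15). Where several peaks made a region, its fold is that of the strongest. Genes came from the RefSeq table of GRCh38.p14, with 18973 protein-coding genes on autosomes after leaving out 153 whose positions are on alternate or unplaced sequences. Pileup and background were recovered with a Poisson tail for the p-value and a fold of (pileup + 1) / (background + 1), which matched a whole number of fragments within 0.001 for 99.998% of R1 and 99.995% of R2 peaks. No source used here states this relation. The median pileup of 72 fragments in each list is the only measure of depth. Intervals are 95% Wilson (scipy 1.17.1), for counting error only. Figures were drawn with matplotlib 3.10.9. The overlap, distance and pileup steps were tested on simulated data.

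The regions, gene lists, markers and alternatives were chosen with earlier results of these data known. Named were the 10 best by mean percentile of fold, the 10 stretches with the most regions, 10 noncoding genes with a region within 1000 bp of an end, the 5 farthest, the 5 widest, 3 on each side of the limit and up to 5 genes per list. The planned motif search at summits needs a genome and was replaced by the RefSeq windows, on 33725 of which, on autosomes, motifs were counted. Alternatives covered distance limits, thresholds on q and fold, overlap, gene sets, single lists and windows. Not every gene that the naming takes is reported here.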

Additional observations from a re-analysis of the deposited data

Results flagged for a closer look

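Chromosome X lies outside the autosomal comparison and also held desert regions. There, 92 of 2838 shared regions (3.24%, 95% Wilson interval 2.65 to 3.96) met the desert rule, at 3.46 per Mb of desert, against 21.3 per Mb in the rest of the chromosome. Ranked among the peaks of the autosomes and chromosome X, their median percentiles of fold were 54.6 in R1 and 46.2 in R2, against 60.9 and 57.2 for autosomal desert regions and 56.9 and 54.3 for the autosomal rest, which were ranked among autosomal peaks. Their median width was 700.5 bp and their median pileup 67.5 and 64.5 fragments.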

How the results depend on the processing

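The median percentile of fold, 59.1 averaged over both lists, moved little under 10 alternatives (57.2 to 60.1). The count of 5695 became 8550 at a limit of 200 kb, 2863 at 500 kb, 3211 with peaks at or above the median fold and 278 with lncRNA genes counted. The density ratio of 0.241 stayed below 1 throughout. It was 0.275 and 0.189 at 200 and 500 kb, 0.246 at a −log10 q of at least 5, 0.259 at or above the median fold, 0.248 with an overlap of 50% of both peaks, 0.0471 with lncRNA genes, 0.233 in R1 alone, 0.237 in R2 alone and, chosen after seeing the data, 0.421 without empty stretches. The gene sets added then, all rows of the table and curated transcripts, changed no value beyond its limit.

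The share of desert R1 peaks found in R2 was 91.0% and 90.4% at a −log10 q of at least 5 and 10, 85.6% with the 50% overlap and 86.9% with lncRNA genes. For R2 in R1 it was 95.02% at a −log10 q of at least 10, 95.4% above the median fold, 89.5% with the 50% overlap and 95.5% with lncRNA genes. The median width was 719 and 686 bp at 200 and 500 kb, 739 and 814.5 bp at a −log10 q of at least 5 and 10, 898 bp above the median fold, 639 bp with lncRNA genes, and 589 and 605 bp in R1 and R2 alone. The share in noncoding genes was 29.0% at 500 kb. The share with another desert region within 10 kb was 61.6% and 53.0% at 200 and 500 kb, 56.7% and 51.5% at a −log10 q of at least 5 and 10, 38.2% above the median fold, 51.1% with lncRNA genes, 60.9% and 60.5% in R1 and R2 alone, and 38.1% and 75.5% within 5 and 20 kb.

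No paired analysis was possible because each list pools its libraries. For the same reason no library was left out. The motif search at summits in other window lengths was not run.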
